A study of Mus musculus with 30 samples.

Results

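The genes described here are the 100 genes whose exonic read level stood highest above control at every time point from 2 h onwards after depletion of SRCAP, the ATPase of the chromatin remodeler that places the histone variant H2A.Z in nucleosomes, in mouse embryonic stem cells. They were chosen from a time course of indole-3-acetic acid (IAA) at 2, 4, 6 and 8 h. Counts scaled to the library total (CPM) were computed for each of 55401 genes, and 10677 genes had a mean of at least 5 CPM over the 10 libraries. The log2 ratio of the mean IAA CPM to the mean control CPM, each with 0.5 CPM added, was taken at each time, and the 100 genes with the highest value at their own lowest time were kept. Genes whose symbol starts with Zfp, Hox, Fox, Wnt or mt- had been set aside beforehand (303 genes), as had 3 genes with no symbol, which left 10371 genes to choose from. Zfp827, Wnt8a, Zfp467 and Foxo1 were set aside in this way although their ratios reached those of the chosen genes.

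The time course used SYAT cells, a CGR8-derived line in which both Srcap alleles carry a YPet and auxin-inducible degron tag and which stably expresses the OsTir1 receptor, so that 500 µM IAA triggers loss of the SRCAP protein. SYAT controls were grown in auxinole, an inhibitor of Tir1, so IAA addition and the change of auxinole status cannot be told apart. The chosen genes were then read in 3 further nuclear RNA count tables, which the choice did not use: parental CGR8 cells, which have no degron, with or without IAA for 4 h; SYAT cells given IAA for 1 h or kept as controls and sorted in early G1 (EG1) or late G1 (LG1); and SYAT-derived lines with doxycycline-inducible mCherry-tagged SRCAP. The last were either wild type (wtSRCAP) or catalytically dead for H2A.Z deposition (cdSRCAP), had doxycycline (1 µg/mL) for 24 h before sorting for mCherry, and received IAA or remained as control for 4 h. Each inducible line was a single clone. Every condition had 2 libraries, 30 in all, and all cells were kept in serum and LIF during the experiments.

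SRCAP exchanges H2A for H2A.Z in nucleosomes next to transcription start sites and at enhancers, and in embryonic stem cells H2A.Z is found both at active promoters and at the bivalent promoters of developmental regulators. Many of the chosen genes encode such regulators, or ligands, receptors and feedback proteins of signaling pathways that act on stem cells. Several are classic fast-response genes, with short transcripts that cells make and remove quickly.

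Of the 100 genes, 87 were protein-coding and 13 were not (87% against 93.1% coding among the genes that could be chosen). Grouped by textbook role after the list was known, 24 encode transcription factors or other DNA-binding regulators, 4 transcriptional cofactors, 8 ligands or secreted and matrix proteins, 16 receptors, adhesion and surface proteins, 12 signaling feedback and stress response proteins, 7 metabolic or modifying enzymes, and 16 other proteins. The coding members were compact: their median gene span was 15524 bp against 25532 bp for all coding genes that could be chosen, and they had a median of 6 merged exons against 11. Of the 87 coding members, 24 (27.6%) had 3 or fewer exons, against 9.97% of the genes to choose from. Their level was low, with a median of 3.16 CPM per kb of exon for the 100 members against 7.79 for all. Of the 100 members, 39 overlap an annotated gene on the other strand, among them Bmp4, Bhlhe40, Phlda1, Ovol1, Pax6 and Eomes, and their reads could be shared because the strand setting of the counting is not given in the sources used here.

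Promoter windows of 300 bases, from 250 bases before to 50 after the RefSeq start, were found for 68 of the 100 members (build GRCm38.p6). Their median GC content was 62.2%, close to the 62% of the 7757 genes to choose from that had a window, and above the 52.7% of all 27025 windows. The median ratio of observed to expected CpG was 0.669 in the members, 0.801 in the genes to choose from and 0.389 in all windows. Of 7 short motifs searched on both strands, TATAAA was in 11.8% of member windows, 6.14% of the windows of genes to choose from and 14.2% of all. CACGTG, the E-box core, was in 4.41%, 11.3% and 7.24%. CCCGCCC was in 44.1%, 52% and 25.8%, and CACCC, whose matches can share letters with a CCCGCCC match, in 63.2%, 62.4% and 56.7%. TGACGT was in 13.2%, 12.8% and 7.64%, AGATAA in 4.41%, 5.17% and 11.4%, and CCAAT in 44.1%, 39% and 37.9%. These are descriptions of letters, and none was tested.

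The windows of 3 members that lead the list are shown, each 5′ to 3′ on the gene's strand with motif matches in capitals, because they represent a ligand subunit, an AP-1 factor and a morphogen that had some of the highest ratios in the time course. Inhbb lies on the minus strand at chr1:119422199-119422498, with GC content 64.3%, a CpG ratio of 0.741 and CACCC matches read as GGGTG.
Inhbb: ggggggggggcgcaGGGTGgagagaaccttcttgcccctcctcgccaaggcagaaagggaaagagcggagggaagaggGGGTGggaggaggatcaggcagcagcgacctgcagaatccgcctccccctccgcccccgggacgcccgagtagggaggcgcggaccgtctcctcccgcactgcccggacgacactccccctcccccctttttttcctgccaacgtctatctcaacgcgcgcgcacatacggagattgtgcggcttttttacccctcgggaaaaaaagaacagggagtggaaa
Fosl2 lies on the plus strand at chr5:32136222-32136521, with GC content 64.7%, a CpG ratio of 1.03 and a CACCC match.
Fosl2: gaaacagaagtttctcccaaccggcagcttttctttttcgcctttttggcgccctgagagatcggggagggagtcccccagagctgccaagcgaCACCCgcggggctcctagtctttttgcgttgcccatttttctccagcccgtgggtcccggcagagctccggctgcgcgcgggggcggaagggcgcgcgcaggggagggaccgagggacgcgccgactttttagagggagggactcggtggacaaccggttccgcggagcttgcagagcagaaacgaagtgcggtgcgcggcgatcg
Bmp4 lies on the minus strand at chr14:46390620-46390919, with GC content 64%, a CpG ratio of 0.419, a CACGTG match and a CCCGCCC match read as GGGCGGG.
Bmp4: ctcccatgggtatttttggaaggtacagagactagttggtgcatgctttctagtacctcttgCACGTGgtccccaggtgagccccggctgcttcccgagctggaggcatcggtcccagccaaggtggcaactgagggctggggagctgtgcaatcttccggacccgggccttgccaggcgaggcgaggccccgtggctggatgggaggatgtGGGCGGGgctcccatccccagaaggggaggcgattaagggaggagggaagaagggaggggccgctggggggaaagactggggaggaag

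Exonic totals ranged from 17540823 to 22873893 counts per library in the time course, 45617992 to 60214521 in CGR8, 19740778 to 26672402 in the sorted cells and 12236493 to 26369773 in wtSRCAP and cdSRCAP cells. All 12 markers of mouse embryonic stem cells were detected in each table, and none of 9 markers of 2-cell-like cells reached a mean of 1 CPM. The summed CPM of 8 mesoderm markers was 11.9 to 16.4 in SYAT controls and 17.99 to 26.7 with IAA. It was 6.66 to 11.03 and 11.1 to 19.7 in wtSRCAP and cdSRCAP cells. The mesoderm ranges overlapped in CGR8 (8.29 to 11.9 and 11.3 to 13.1) and in the sorted SYAT cells (14.8 to 20.8 and 14.8 to 22.2). Other sums did differ in CGR8 without overlap. Embryonic stem cell markers summed to 5116 to 5619 in CGR8 controls and 5840 to 5949 with IAA. Neural markers had 222.6 to 225.8 and 180.1 to 206.1, and primitive endoderm markers 361.7 to 386.1 and 308.4 to 333.1. Fibroblast and trophoblast sums overlapped in CGR8. In the time course the sums of fibroblast, neural, primitive endoderm and trophoblast markers overlapped between control and IAA. Fibroblast markers summed to 7.09 to 10.25 in wtSRCAP and cdSRCAP controls and 10.25 to 13.9 with IAA. Of the 8 mesoderm markers, 5 had a mean of at least 1 CPM in the time course, 4 in the sorted cells and 3 in the other tables. Eomes is itself a member (7.74 to 17.9 CPM in the time course). The part of mesoderm-like cells in the results was not tested. Mitochondrial transcripts took 0.529% of counts in SYAT 6 h replicate 2 against 1.80 to 2.44% in the other time course libraries, and 0.215% in wtSRCAP IAA replicate 1 against 0.606 to 0.808% in the other libraries of that table. Srcap RNA was 40.3 to 63.5 CPM in the time course, which does not report on the protein that IAA removes.

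In the time course the members were chosen for being high, so their values are described without a test. In bulk RNA, more cells with a transcript and more transcript per cell cannot be told apart. The 4 times share the same 2 control libraries. The lowest of the 4 log2 ratios ran from 0.41 (Hhex) to 1.19 (Inhbb), with a median of 0.49. The median log2 ratio of the members was 0.52 at 2 h, 0.73 at 4 h, 0.70 at 6 h and 0.77 at 8 h, whereas the genes to choose from had medians of −0.02, −0.02, −0.15 and −0.02. For 61 members the lowest ratio fell at 2 h, and for 42 the highest fell at 8 h. The order of the later times rested on 8 h replicate 2. Without it, over the 97 members still at the CPM limit, the medians were 0.52, 0.73, 0.70 and 0.65, the highest ratio fell at 8 h for 28, and the lowest fell at 2 h for 48 and at 8 h for 34. Among all genes to choose from, 20.9% had ratios above 0 at all 4 times.

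The limit of the list cut through near-equal values. Phox2a, a homeodomain factor, Npr3, the natriuretic peptide clearance receptor, and Hhex, a homeobox factor of endoderm and blood, were the last to enter, with lowest log2 ratios of 0.4165, 0.4153 and 0.4146. The growth factor gene Vegfc (0.4142), the semaphorin and VEGF co-receptor gene Nrp2 (0.412) and Mex3b (0.4103) were the first left out.

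Inhbb, the activin and inhibin beta-B subunit, led the list. It had 2.15 and 4.02 CPM in control replicates 1 and 2, 4.85 and 10.5 at 2 h, 5.93 and 13.4 at 4 h, 10.5 and 23.8 at 6 h, and 9.59 and 16.3 at 8 h. All 8 IAA libraries lay above both controls, and replicate 2 lay above replicate 1 in every condition. Bmp4, a morphogen of mesoderm and a growth factor used by stem cells, had 9.25 and 13.1 CPM in controls, 15.2 and 27.9 at 2 h, 15.7 and 27.4 at 4 h, 17.6 and 24.0 at 6 h, and 17.6 and 27.2 at 8 h. Its log2 ratio was already 0.92 at 2 h and stayed between 0.87 and 0.97, and replicate 2 was again the higher. Hbegf, a ligand of the EGF receptor, had 5.01 and 3.94 CPM in controls and 8.44 to 11.2 CPM in the 8 IAA libraries, with its highest ratio, 1.17, at 2 h.

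**Figure D1:**
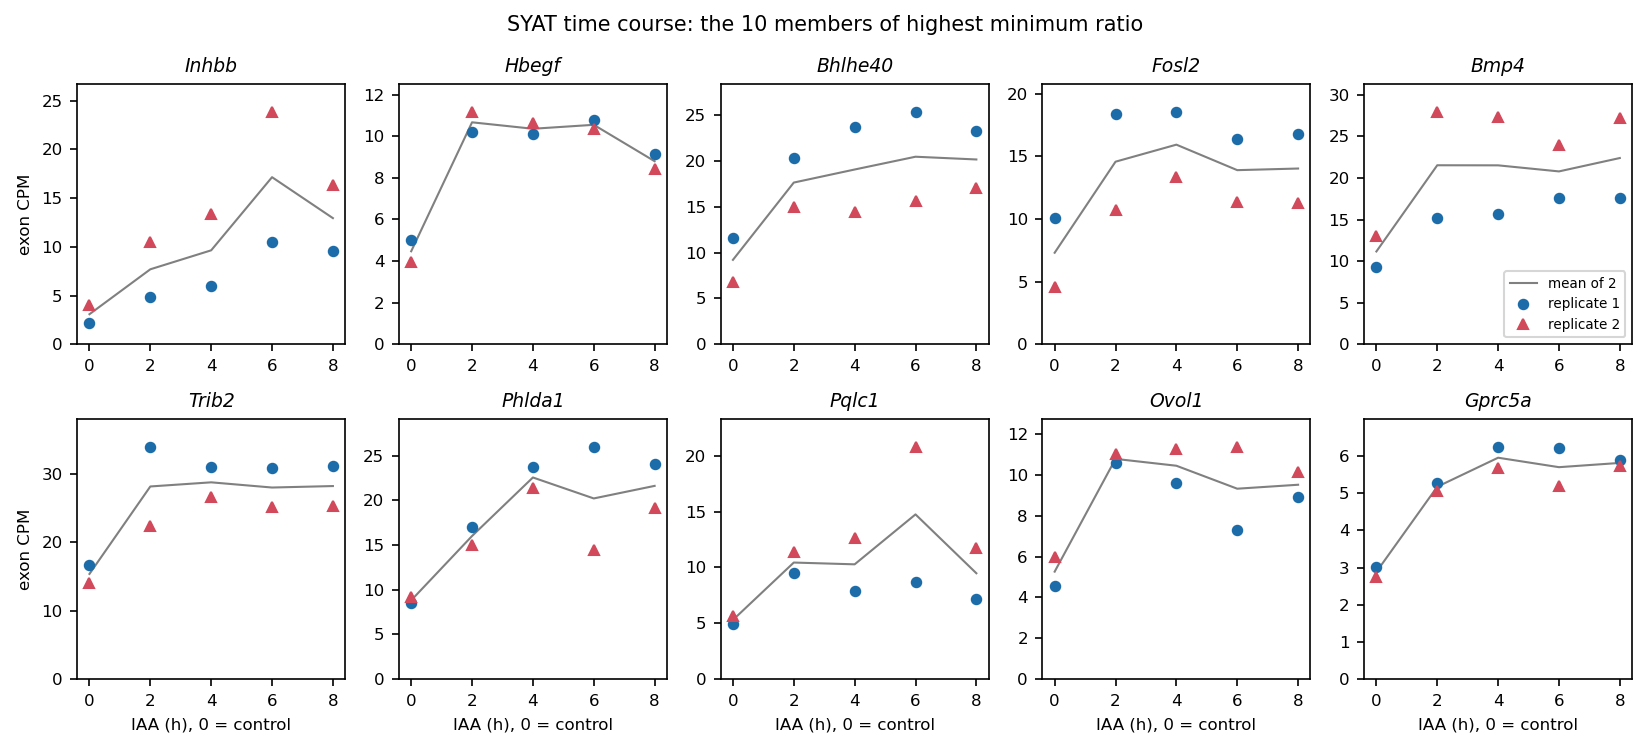
CPM from exon counts (vertical axis) against hours of IAA (horizontal axis) for the 10 members with the highest lowest ratio; each point is 1 library, with 2 replicates per time. All 10 genes had their 8 IAA libraries above both controls, from Inhbb, which went on to 23.8 CPM at 6 h, to Hbegf, which was highest at 2 h.

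Among the transcription factors, Bhlhe40, a bHLH repressor that feeds back on the circadian clock, had 11.6 and 6.82 CPM in controls and 14.4 to 25.3 CPM with IAA. Fosl2, the AP-1 subunit Fra-2, had 10.1 and 4.55 CPM in controls and 10.8 to 18.5 CPM with IAA. Both were higher in replicate 1 than in replicate 2 in every condition, the opposite of Inhbb and Bmp4. Ovol1, a zinc finger repressor of epithelial fate, had 4.55 and 5.99 CPM in controls and 7.30 to 11.4 CPM with IAA.

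The developmental regulators had lower ratios. Eomes, a T-box factor of mesendoderm and trophoblast, had 10.0 and 7.74 CPM in controls and 11.6 to 17.9 CPM with IAA, highest at 4 h. Pax6, a factor of neural and eye fate, had 5.82 and 9.88 CPM in controls and 9.88 to 18.4 CPM with IAA, so that 7 of its 8 IAA libraries were above both controls. Erf, an ETS repressor that ERK exports from the nucleus, had the highest CPM per kb of exon of the factors, 26.4, and had 66.8 and 68.7 CPM in controls and 91.7 to 127 CPM with IAA.

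The 12 signaling feedback and stress genes had a median log2 ratio of 0.52 at 2 h, the same as all members. Trib2, a pseudokinase that steers protein degradation, had 16.7 and 14.1 CPM in controls, 33.9 and 22.4 at 2 h and 31.2 and 25.3 at 8 h. Phlda1, induced by ERK signaling, had 8.48 and 9.14 CPM in controls, 17.0 and 14.97 at 2 h and 23.7 and 21.4 at 4 h. For both genes the IAA and control ranges did not overlap. The phosphatase genes Dusp5 and Dusp1, which switch off MAP kinases, had highest log2 ratios of 0.74 at 4 h and 0.61 at 6 h. Sgk1, a serum and glucocorticoid-induced kinase, had the highest CPM per kb of exon of all members, 53.5, and had 154 and 211 CPM in controls and 225 to 327 CPM with IAA.

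Receptors and surface proteins differed in pace. Cntfr, the binding subunit for ciliary neurotrophic factor, had 10.2 and 7.48 CPM in controls, 13.8 and 11.9 at 2 h and 23.3 and 22.2 at 6 h. Notch4 had 6.85 and 7.39 CPM in controls, 8.36 and 12.0 at 2 h and 14.3 and 31.7 at 6 h, a wide gap between replicates. Adgre5, the adhesion receptor CD97, had 22.2 and 22.5 CPM in controls, 28.4 and 34.9 at 2 h and 46.6 and 55.7 at 8 h. Gprc5a, an orphan receptor, and Itga5, the fibronectin receptor subunit, were steadier, with log2 ratios of 0.75 to 0.93 and 0.57 to 0.74. Pqlc1, a PQ-loop membrane protein, and Pfkfb3, a regulator of glycolytic flux, had log2 ratios of 0.78 to 1.40 and 0.43 to 0.59.

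**Figure D2:**
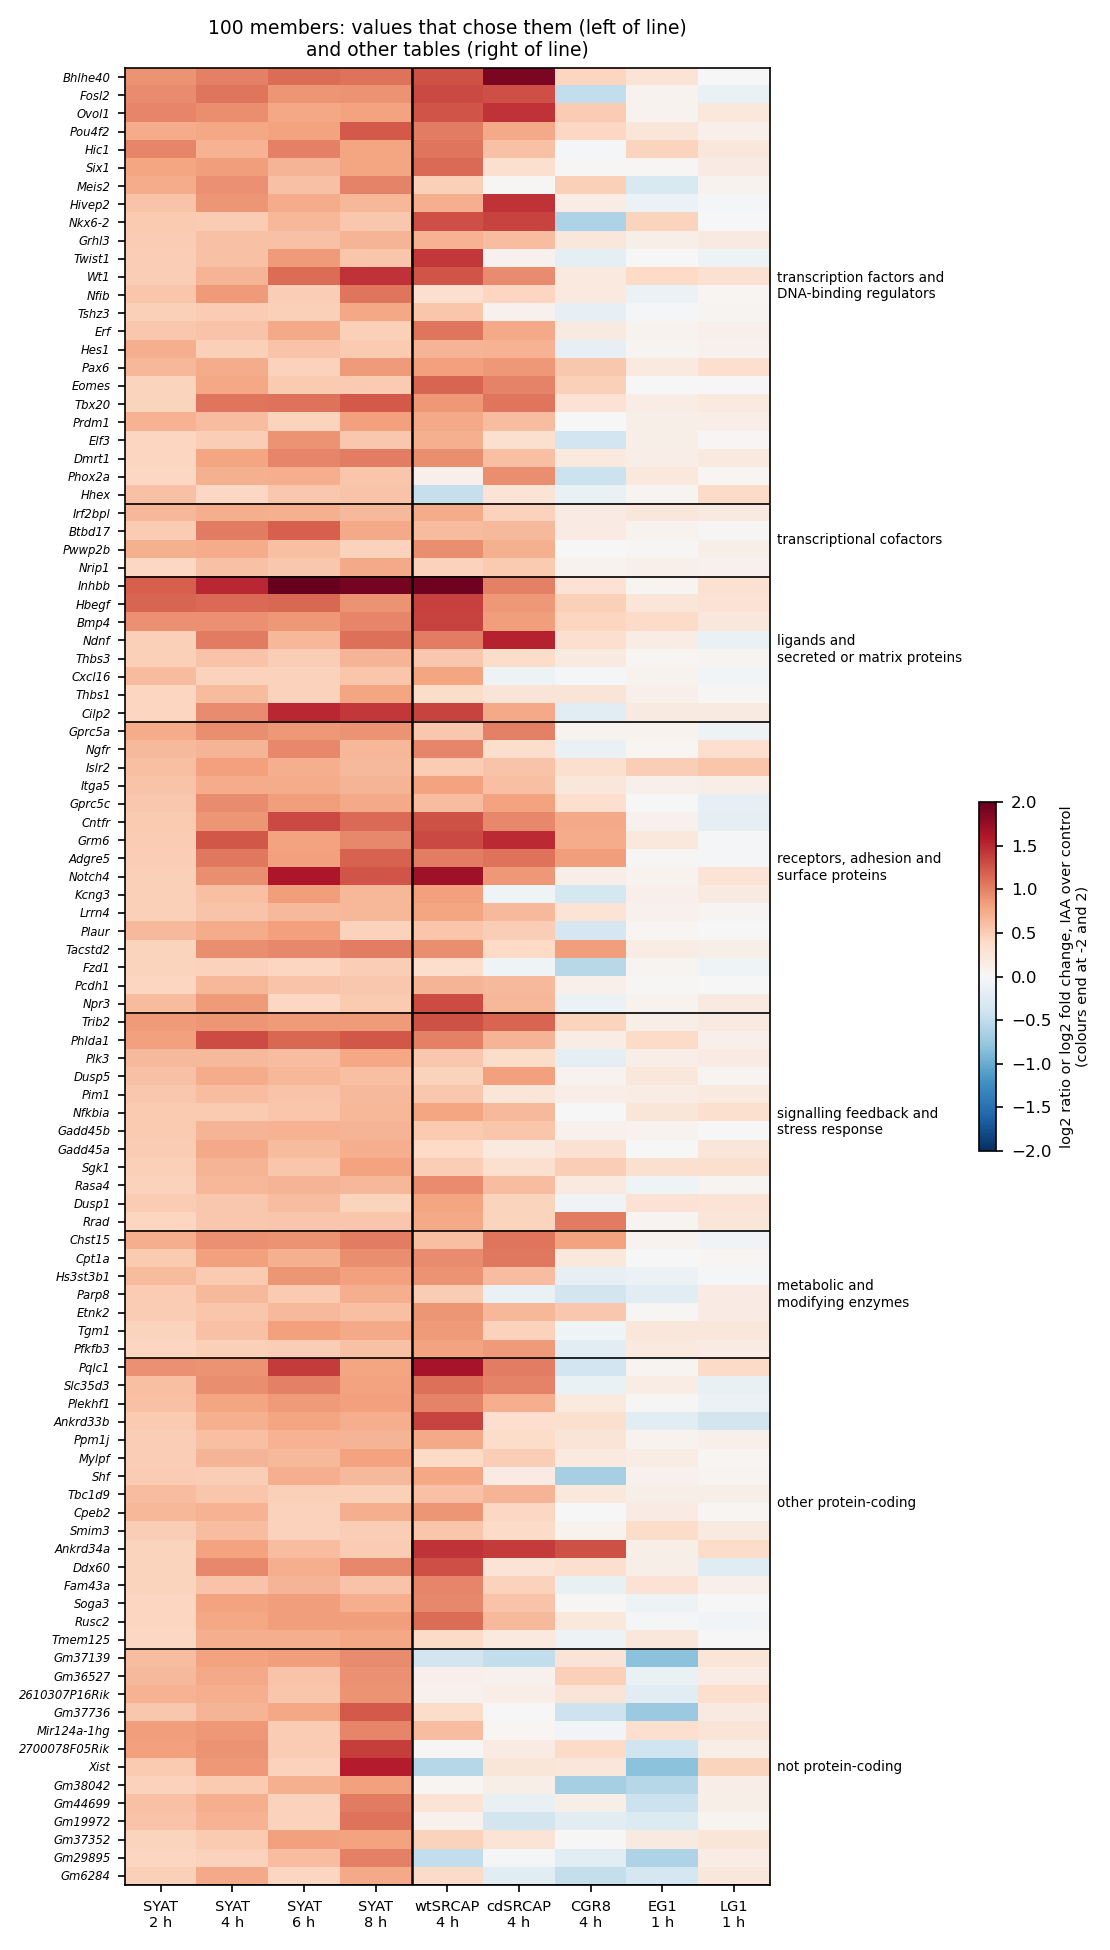
Log2 ratio of IAA to control CPM (color) for the members (vertical axis, grouped by role) at the 4 times of the time course and in the other comparisons (horizontal axis). Coding members were above 0 in the wtSRCAP (86 of 87) and cdSRCAP (83 of 87) columns and mixed in CGR8 (59 of 87); the 4 time course columns are the values that chose the members.

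Over all members, 65 had all 8 IAA libraries above both controls (4.27% of the genes to choose from) and 92 had both replicates above their own control at every time (10.3%). These counts describe what the choice fixed in part. The choice was also repeated in 1 replicate and read in the other, within the same 10 libraries. The genes chosen in replicate 1 and in replicate 2 shared 55 and 64 with the list. What follows therefore describes the way of choosing and not the members as such. Of 100 genes chosen in replicate 1, 78 were above 0 at all 4 times in replicate 2 (18.6% of the genes to choose from), with medians of 0.46, 0.63, 0.39 and 0.65. Of 100 chosen in replicate 2, 88 were above 0 at all times in replicate 1 (26.6%), with medians of 0.38, 0.55, 0.62 and 0.58. Each replicate had 1 control library, which all 4 times share.

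Intronic counts came from the same libraries, and in the time course they held exonic reads for some members. Irf2bpl and Fam43a have 1 exon that spans the whole gene. They had 73.9 to 127 and 17.1 to 37.8 CPM over introns here, but 0 in CGR8. The values below are therefore no measure apart from the exon counts, and the share of exonic reads in them was not tested. Of the 78 members with at least 1 CPM over introns, the medians were 0.62, 0.77, 0.74 and 0.80 at 2, 4, 6 and 8 h, and 77 to 78 were above 0 at each time. Of the 9007 genes to choose from with as many intronic counts, 45.3%, 46.5%, 35.9% and 47.1% were above 0. The exonic medians of the same 78 members were 0.52, 0.71, 0.69 and 0.77. Member by member, the intronic ratio was the higher one for 45 at 2 h, 34 at 4 h, 31 at 6 h and 32 at 8 h. Among the 9007 genes to choose from it was the higher one for 3430, 3496, 3784 and 3497.

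The 13 members that are not protein-coding behaved differently between libraries and were named after their values were seen. They are Gm37139, Gm36527, 2610307P16Rik, Gm37736, Mir124a-1hg, 2700078F05Rik, Xist, Gm38042, Gm44699, Gm19972, Gm37352, Gm29895 and Gm6284, of which 7 belong to the provisional TEC class of the annotation and 3 are long intergenic noncoding RNAs. Several lie within a longer gene on the same strand, as Gm37139 in Ehmt1, Gm36527 in Rnf2 and Gm37736 in Tcf7l1, so their exon counts cannot be told apart from host gene introns.

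Against the mean log2 CPM of both controls, their median log2 ratio was 0.49 and 0.66 at 2 h, 0.07 and 1.15 at 4 h, 0.81 and 0.33 at 6 h, and −0.15 and 1.59 at 8 h in replicates 1 and 2. The coding members held at 0.55 and 0.60, 0.71 and 0.74, 0.70 and 0.70, and 0.72 and 0.78. Xist, the RNA that coats an inactive X chromosome, showed this most, with 5.67 and 13.4 CPM in controls, 11 and 16.8 at 2 h, 6.45 and 29.2 at 4 h, 21.6 and 5.19 at 6 h, and 6.71 and 51.6 at 8 h. Tsix overlaps Xist on the other strand, so Xist counts, here and below, may hold Tsix reads. Kcnq1ot1, a long nuclear RNA outside the list, moved with the noncoding members except in 6 h replicate 2. It had 183 and 246 CPM in controls, 182 and 448 at 4 h, 330 and 155 at 6 h and 186 and 730 at 8 h. In 6 h replicate 2 it lay below both controls, whereas the summed CPM of the noncoding members (100.6) lay above both (68.7 and 83.1). Intronic counts summed to 1.19 times the exonic total in 8 h replicate 2 and to 1.0 to 1.1 times in the other libraries. The part of such library differences in the result was not tested. When 8 h replicate 2 was left out, 91 of the 97 members still at the CPM limit were above 0 at all times, and a fresh choice held 1 noncoding gene and shared 79 genes with the list. When 6 h replicate 2, with few mitochondrial reads, was left out, all 100 stayed above 0 and a fresh choice shared 79.

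**Figure D3:**
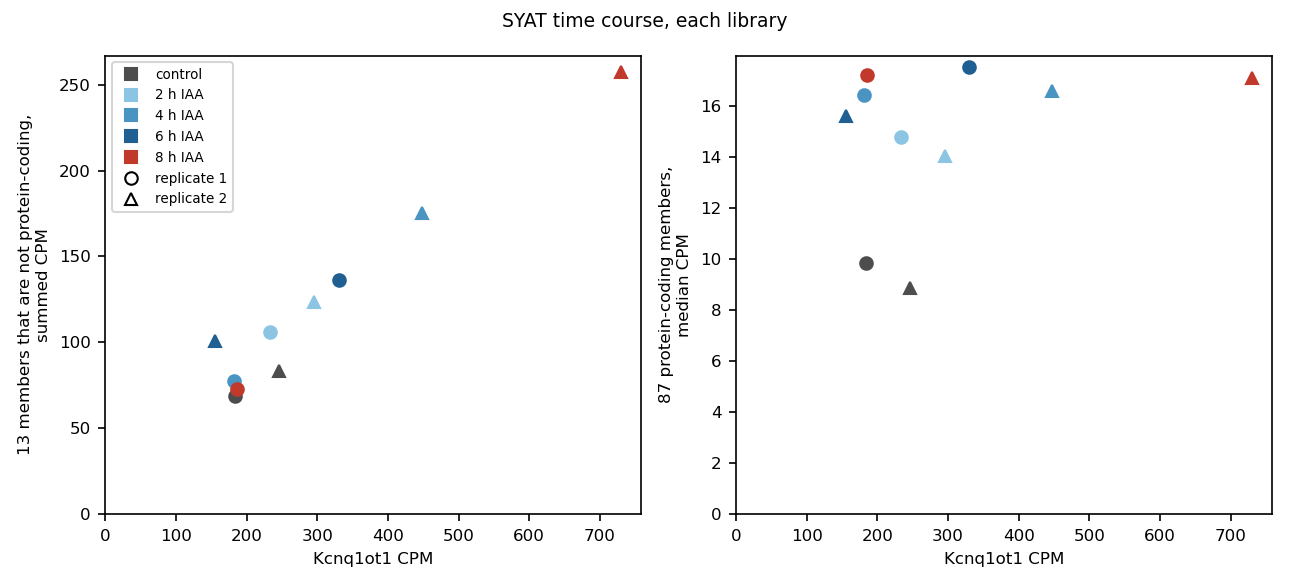
Summed CPM of the 13 noncoding members (left, vertical axis) and median CPM of the 87 coding members (right, vertical axis) against Kcnq1ot1 CPM (horizontal axis) in each of the 10 time course libraries. The noncoding sum runs from 68.7 to 257.5 CPM, mostly along with Kcnq1ot1, but is 100.6 CPM in 6 h replicate 2, where Kcnq1ot1 is lowest. The coding median is 8.88 and 9.86 CPM in the controls and 14.0 to 17.6 CPM with IAA at any Kcnq1ot1 level.

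CGR8 cells have no degron, so this comparison asks what IAA did without SRCAP loss. All 100 members were tested, here and in the tables that follow, by edgeR's quasi-likelihood test with Benjamini-Hochberg adjustment over every gene with enough counts. The fit had no replicate block, and calls from a fit with such a block are given in the last section. By the study's methods the replicates are biological, from independent cultures and treatments of a line, so p-values measure the spread between such cultures. None of the members was called, with a smallest adjusted p of 0.54 by edgeR, and of 20250 genes 0% were called higher and 0.00988% lower at adjusted p under 0.05 and a log2 fold change past 0.5. DESeq2 called 1 member higher (0.257% of its genes). At unadjusted p under 0.05, 9 members were higher (5.04% of all genes) and 3 lower (4.12%), and the 9 became 5 without IAA replicate 1 (4.36%) and 18 without control replicate 2 (15.5%). The median log2 fold change of the members was 0.15 against a median close to 0 for all genes, and 65 were above 0 (50% of all genes). In 32 members the IAA libraries lay above both controls without overlap (21.6% of all genes), and in 11 below (20.6%).

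The smallest unadjusted p-values in CGR8 belonged to Adgre5, Cntfr and Ankrd34a. Adgre5 had 27.9 and 37.0 normalized CPM in controls and 57.3 and 59.0 with IAA, a log2 fold change of 0.84 ± 0.17 (SE) with unadjusted p = 0.000876. Cntfr had 8.16 and 8.34 in controls and 13.7 and 14.2 with IAA, a log2 fold change of 0.76 ± 0.18. Ankrd34a, an ankyrin repeat protein, had 1.57 and 2.76 against 5.34 and 5.18, with a log2 fold change of 1.28 ± 0.32. Groups did not overlap for any of these, and each had an adjusted p of 0.54 by edgeR. Sgk1 (0.49), Pax6 (0.54), Bmp4 (0.43) and Hbegf (0.48) had positive log2 fold changes at unadjusted p under 0.05, and Shf, an SH2 adapter, had −0.67. On intron counts the values of Bmp4 and Hbegf were −0.76 and −0.34. Inhbb had 45.5 and 36.2 in controls and 57.7 and 42.4 with IAA, so its groups overlapped.

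In wtSRCAP cells, IAA removed the tagged endogenous SRCAP while wild-type SRCAP was induced. No member was called after adjustment (0% of all genes called higher and 0.00523% lower), and the smallest adjusted p among the members was 0.597 by edgeR, while DESeq2 called 2 higher (0.0302%). With a replicate block, for which no label names a shared batch, 43 members were called higher (1.74% of all genes). At unadjusted p under 0.05, 49 members were higher (2.93% of 19111 genes) and none lower (4.48%). The median log2 fold change was 0.79 against −0.02 for all genes, 96 members were above 0 (47.7%), 76 were at least 0.5 (13.5%), and in 63 the IAA libraries lay above both controls (14.9%). They lay below both for 1 member (19.5%). Library choice mattered: the 49 became 33 without IAA replicate 1, the library with few mitochondrial reads (1.61% of all genes), and 29 without control replicate 2 (1.85%). When libraries were scaled by column sums alone, the median of all genes moved to −0.20, the members' to 0.57 and the 49 to 35 (1.22%).

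Erf had 104 and 92.8 normalized CPM in wtSRCAP controls and 240 and 174 with IAA, a log2 fold change of 1.08 ± 0.22 (unadjusted p = 0.000781). Pqlc1 had 5.25 and 7.81 against 26.7 and 14.4, with a log2 fold change of 1.64 ± 0.34. Rusc2, a vesicle trafficking protein, had 11.9 and 15.3 against 28.8 and 30.0, with a log2 fold change of 1.11 ± 0.24. For all of these the groups did not overlap. Inhbb had 22.9 and 14.4 against 98.6 and 45.2, a log2 fold change of 1.94 ± 0.43, the highest of the members, and IAA replicate 1 was well above replicate 2. Notch4 had 11.7 and 7.36 against 44.8 and 16.8, and Bmp4 27.5 and 15.6 against 71.8 and 38.7, with log2 fold changes of 1.69 ± 0.46 and 1.36 ± 0.34. Npr3, which only just entered the list, had 6.73 and 5.27 against 18.2 and 11.4.

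In cdSRCAP cells the induced protein cannot deposit H2A.Z. Again no member was called after adjustment (0% of all genes in either direction), with a smallest adjusted p of 0.721 among the members by edgeR, while DESeq2 called 1 higher (0.00906%). With a replicate block 17 were called higher (0.523% of all genes). At unadjusted p under 0.05, 30 members were higher (1.65% of all genes) and none lower (3.99%). The median log2 fold change was 0.58 against 0.02 for all genes, 91 members were above 0 (52.3%), 54 were at least 0.5 (11.3%), and in 65 the IAA libraries lay above both controls (18.7%), with 0 below both (19%). The 30 became 10 without IAA replicate 1 (0.303% of all genes), 18 without IAA replicate 2 (0.869%) and 16 without control replicate 1 (0.814%).

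Ovol1 had 2.26 and 2.67 normalized CPM in cdSRCAP controls and 7.38 and 6.10 with IAA, a log2 fold change of 1.44 ± 0.35 (unadjusted p = 0.00234), although on sparse intron counts its value was of the opposite sign. Bhlhe40 had 6.40 and 5.58 against 25.5 and 18.3, with a log2 fold change of 1.88 ± 0.48, the highest of the members in this line. Trib2 had 7.61 and 9.72 against 22.7 and 16.2, with a log2 fold change of 1.16 ± 0.29. Groups did not overlap for any of these. Phox2a and Hhex, at the limit of the list, had log2 fold changes of 0.93 ± 0.44 and 0.27 ± 0.48.

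Both lines can be read side by side. Of the members, 28 were at unadjusted p under 0.05 in both (0.759% of all genes), which is 57.1% of the 49 in wtSRCAP and 93.3% of the 30 in cdSRCAP. They include the transcription factors Bhlhe40, Fosl2, Ovol1, Erf, Eomes, Pax6, Prdm1, Grhl3, Dmrt1 and Nkx6-2, the ligands Inhbb and Bmp4, the receptors Cntfr, Adgre5, Itga5 and Pcdh1, the feedback genes Trib2 and Nfkbia, and the enzymes Pfkfb3, Cpt1a and Etnk2. Fosl2 had log2 fold changes of 1.32 and 1.29 in wtSRCAP and cdSRCAP, Eomes 1.17 and 0.99, Pax6 0.82 and 0.86, and Cntfr 1.28 and 0.96. In total 89 members were above 0 in both lines (33.7%).

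**Figure D4:**
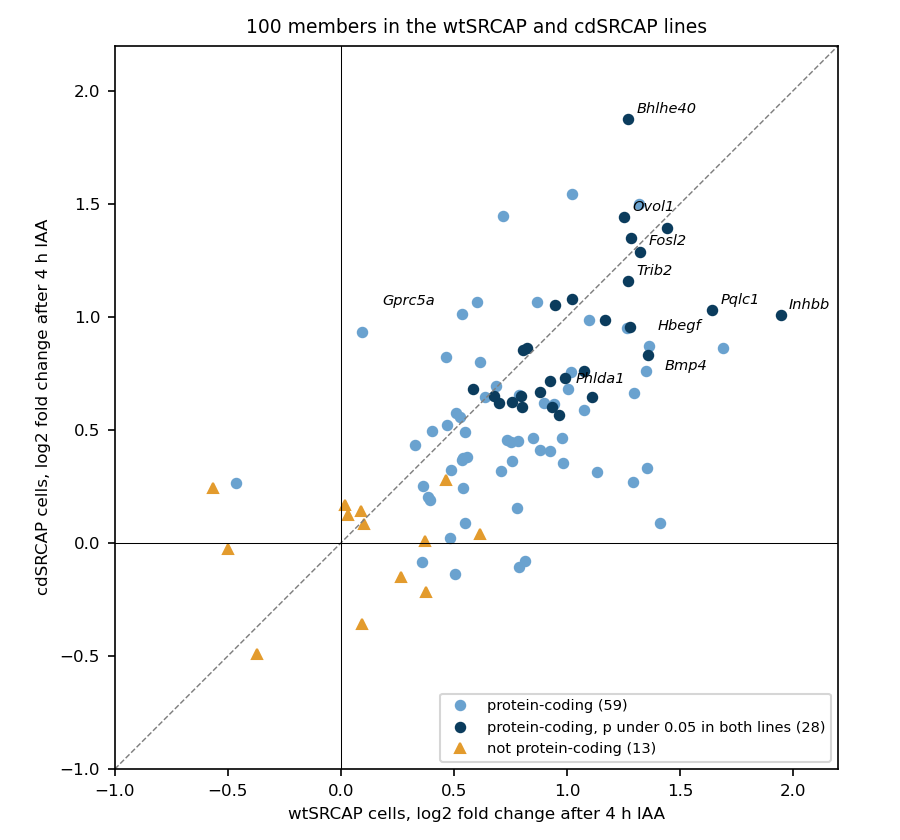
Log2 fold change with IAA in cdSRCAP cells (vertical axis) against wtSRCAP cells (horizontal axis) for the 100 members, 1 point each. Most points, 89, lie above 0 on both axes, and noncoding members gather near 0.

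The difference between both responses was tested as an interaction. No member passed at unadjusted p under 0.05 in either direction (0.413% and 0.372% of all genes), and none was called by edgeR after adjustment or by DESeq2. Without wtSRCAP IAA replicate 2, 9 were lower in that sense (2.64%) and 1 higher (4.83%). The median difference, cdSRCAP minus wtSRCAP, was −0.19 against 0.02 for all genes, and 70 members were below 0 (47.6%). Inhbb had a difference of −0.94 ± 0.59 and Xist 0.81 with unadjusted p = 0.063. The sign of the median held when single libraries were left out, but its size ran from −0.43 without wtSRCAP IAA replicate 2 to −0.02 without wtSRCAP IAA replicate 1, and it was −0.07 with column sum scaling.

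Without IAA, the lines themselves were set against each other. Since each is 1 clone, clone and SRCAP form cannot be told apart. At unadjusted p under 0.05, 16 members were higher in cdSRCAP controls than in wtSRCAP controls (2.5% of all genes) and 1 lower (1.32%), with a median log2 difference of 0.27 and none called after adjustment (smallest adjusted p = 0.697 by edgeR), while DESeq2 called 2 higher (0.0543%). The median was 0.09 without wtSRCAP control replicate 2 and 0.43 without wtSRCAP control replicate 1. Mir124a-1hg, a host transcript of a neural microRNA, had 3.89 and 3.22 normalized CPM in wtSRCAP and 14.99 and 9.72 in cdSRCAP, a log2 difference of 1.79 ± 0.33. Inhbb had 22.9 and 14.4 against 82.3 and 49.9, with a log2 difference of 1.83 ± 0.43, so its cdSRCAP controls stood near the level that wtSRCAP cells had with IAA. Ddx60, an antiviral helicase, had a log2 difference of 2.05 ± 0.44. Bmp4 and Notch4 were also higher, by 1.17 and 1.55.

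With IAA, 6 members were higher in cdSRCAP (2.84%) and 7 lower (2.19%), with a median of 0.12 that turned to −0.14 without wtSRCAP IAA replicate 2 and was 0.24 without wtSRCAP IAA replicate 1. Without cdSRCAP IAA replicate 1 the median was 0.007. The counts in both directions also changed with the library left out and are not given here. Xist had 13.1 and 15.7 in wtSRCAP and 47.6 and 43.4 in cdSRCAP, a log2 difference of 1.66 ± 0.28. Cxcl16, a chemokine, had 13.6 and 5.09 against 3.03 and 1.53, a log2 difference of −2.02 ± 0.61. The smallest adjusted p among the members was 0.951 by edgeR, and DESeq2 called 1 higher (0.0121%).

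The sorted cells had only 1 h of IAA. Calls in this table used unadjusted p under 0.05 and a log2 fold change past 0.25, after the study's own threshold. In EG1 no member was called higher (0.19% of 21020 genes) and 1 lower (1.03%), Gm37139, with 3.51 and 3.44 normalized CPM in controls and 1.46 and 2.48 with IAA, a log2 fold change of −0.81 ± 0.35 (unadjusted p = 0.0493). In LG1 none was called higher (0.285%) or lower (0.733%). Gm37139 was not called by DESeq2, nor when EG1 IAA replicate 1 or either EG1 control was left out, and leaving out EG1 IAA replicate 2 gave 3 called lower (1.18% of all genes), while LG1 had up to 3 called higher without control replicate 1 (0.582%). The adjusted p of every member was 1 by edgeR, and DESeq2 called none in EG1 or LG1.

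The median log2 fold change of the members was 0.08 in EG1 and 0.11 in LG1, with 76 (50.1% of all genes) and 79 (52.5%) above 0 and 24 (49.9%) and 21 (47.5%) below. In 16 (7.98%) and 14 (7.83%) members the IAA libraries lay above both controls, and in 7 (13.4%) and 2 (10.4%) below both. The EG1 median was 0.05 without control replicate 2 and 0.16 without control replicate 1, the LG1 median 0.03 and 0.19, and with column sum scaling they were 0.03 and 0.07. Bmp4 had 4.83 and 5.69 in EG1 controls and 6.13 and 7.52 with IAA, and Phlda1 had 7.12 and 7.03 against 9.86 and 8.51, log2 fold changes of 0.38 each with no overlap. Nfkbia, the inhibitor of NF-kappa-B, had 23.0 and 21.4 in LG1 controls and 25.7 and 29.8 with IAA, a log2 fold change of 0.32 with unadjusted p = 0.0509. Inhbb, which led the time course, had 2.01 to 2.78 in EG1 controls and 1.67 to 3.35 with IAA, with overlap. The difference between the EG1 and LG1 responses passed for no member by edgeR (0.247% and 0.452% at unadjusted p under 0.05) and for 1 by DESeq2 (0.147% lower), with a median of −0.01. The noncoding members had a fitted median of −0.40 in EG1 and 0.19 in LG1. Each IAA library was also set against the mean log2 CPM of both controls, a different scale. The medians of replicates 1 and 2 were then −0.58 and −0.32 in EG1 and 0.58 and −0.42 in LG1.

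**Figure D5:**
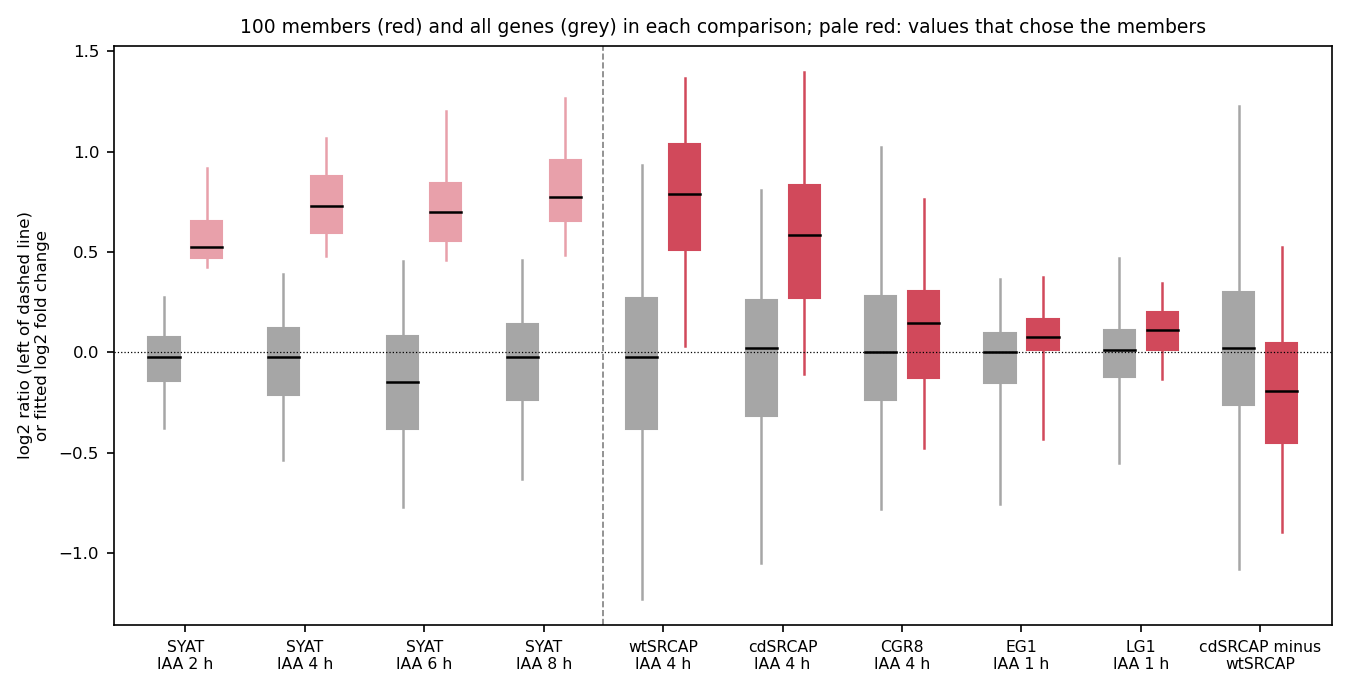
Distribution of log2 values (vertical axis) for the members and for all genes tested, or all that could be chosen in the time course, in each comparison (horizontal axis), with median, quartiles and the range from the 5th to the 95th percentile. The members' medians are 0.79 in wtSRCAP and 0.58 in cdSRCAP but 0.15 in CGR8, 0.08 in EG1 and 0.11 in LG1.

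Read by role, every coding group had a positive median in wtSRCAP and cdSRCAP cells. The 24 DNA-binding regulators had a median log2 fold change of 0.90 in wtSRCAP with 13 higher at unadjusted p under 0.05 (2.93% of all genes), the 8 ligands and matrix proteins 1.18 with 4, the 16 receptors and surface proteins 0.81 with 8, the 12 feedback and stress genes 0.65 with 6, and the 7 enzymes 0.85 with 5. In cdSRCAP the medians were 0.73, 0.80, 0.65, 0.50 and 0.67, with 11, 2, 4, 3 and 3 such genes (1.65% of all genes). The 4 cofactors, among them Irf2bpl, had medians of 0.69 and 0.58. In CGR8 the same groups had medians of 0.17, 0.27, 0.18, 0.13 and −0.09, and 0.12 for the cofactors. The 13 noncoding members had medians of 0.09 in wtSRCAP, 0.04 in cdSRCAP and close to 0 in CGR8, with none higher at unadjusted p under 0.05.

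Set side by side across separately normalized tables, the members' median was 0.79 in wtSRCAP, 0.58 in cdSRCAP and 0.15 in CGR8, a contrast that was not tested. The medians of all genes were −0.02, 0.02 and −0.0003. At least 0.5 on the log2 scale was reached by 10 members in CGR8 (14.9% of all genes). Across genes, which are not independent replicates, the Spearman correlation of the 4 h time course ratio with the fitted value was 0.47 in CGR8, 0.37 in wtSRCAP and 0.46 in cdSRCAP over the 100 members, and 0.19, 0.61 and 0.71 over the 10367, 10365 and 10365 genes to choose from that were tested. The 4 h ratio helped to choose the members, and its range among them is cut off at 0.41. The member correlations therefore cannot show which cells were closest to the time course.

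Other genes of the same pathways were taken from 25 lists written down with earlier results of these data known. Of 4 mesoderm and endoderm factors that could be chosen, 3 were members (Eomes, Meis2 and Hhex). The FGF and ERK feedback list had 2 of 20 (Dusp5, Phlda1), LIF, CNTF and JAK-STAT 2 of 15 (Cntfr, Pim1), Nodal, TGF-beta and BMP 2 of 22 (Bmp4, Inhbb), Notch 2 of 12 (Notch4, Hes1) and immediate early genes 2 of 15 (Fosl2, Dusp1). WNT targets (Bmp4), clock (Bhlhe40), extracellular matrix (Itga5), hypoxia and glycolysis (Pfkfb3) and neural factors (Pax6) had 1 each, and the other 14 lists had 0. Those 14 were ATF4 response, cAMP, axon guidance, calcium signaling, chromatin, endothelin, formative and primed, heat shock, hedgehog, interferon, naive pluripotency, p53, retinoic acid and xenobiotic response.

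Of the 320 other genes in these lists that could be chosen, 139 (43.4%) were above 0 at all 4 times, against 20.9% of all genes to choose from. The share was above 20.9% in 20 lists, from 11 of 13 immediate early genes, 6 of 8 WNT targets and 12 of 20 Nodal, TGF-beta and BMP genes down to 2 of 8 hedgehog genes. It was below in 5 lists, with 1 of 18 ATF4 response genes, 1 of 10 clock genes, 3 of 16 p53 targets, 0 of 2 neural factors and 0 of 1 endothelin gene. In wtSRCAP cells, 7 of 22 immediate early genes were higher at unadjusted p under 0.05 (2.93% of all genes), among them Fos, Fosl2, Egr2 and Dusp1. So were 5 of 27 Nodal, TGF-beta and BMP genes (Lefty1, Lefty2, Bmp4, Inhbb and Tgfb1) and 4 of 13 WNT targets. None of these 3 lists had a gene that was lower at unadjusted p under 0.05 in wtSRCAP or cdSRCAP. In cdSRCAP cells (1.65%) the counts higher were 2 of 22, 7 of 27 and 3 of 13. In CGR8 they were 0 of 22, 6 of 27 and 3 of 15 higher (5.04%) and 4, 2 and 0 lower (4.12%). The ATF4 response list, with targets of the integrated stress response and no member, had 0 of 23 higher in all 3 and 6 lower in wtSRCAP, 6 in cdSRCAP and 13 in CGR8. Over all lists, the genes that are no members were higher for 40 of 426 (9.39%) in wtSRCAP, 21 of 426 (4.93%) in cdSRCAP and 37 of 451 (8.2%) in CGR8, and lower for 9 (2.11%), 12 (2.82%) and 40 (8.87%).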

How the data were processed

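Nuclear RNA-seq libraries were prepared by the study with a directional kit, aligned with STAR to mm10, processed with SAMtools 1.10 and Picard, and counted with featureCounts. The strand setting is not given in the sources used here. The authors deposited raw counts per gene over exons and over introns in 4 tables (55401 genes each). Their own comparison tables, with normalized means, log2 fold changes and p-values, were not used.

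Gene symbols were found for 55141 identifiers, 54349 with the same version. CPM in the time course are counts divided by the column sum. In the other tables exon counts were tested with edgeR 4.0.16 (R 4.3.3) on TMM-scaled libraries, quasi-likelihood fit over all groups of a table, after a filter on low counts (minimum count 10, minimum total 15), with Benjamini-Hochberg adjustment over all genes. Calls needed adjusted p under 0.05 and a log2 fold change past 0.5, or p under 0.05 and 0.25 in the sorted cells. Normalized CPM are TMM-scaled, and every mean rests on 2 libraries. Precision is limited by 2 libraries per group and by the depths given above. The test was checked on simulated data.

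The members, gene lists and tests were chosen with earlier results of these data known. Genes were named as the 10 highest by lowest ratio, the 3 on each side of the limit, the 5 with the highest CPM, the members of pathway lists and the 3 with the smallest p per comparison; role groups were made after the members were known. Alternatives were DESeq2 1.42.0, RLE scaling, no filter, intron counts, a replicate block, only the groups compared, other CPM limits and pseudocounts, and leaving out single libraries.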

Additional observations from a re-analysis of the deposited data

Results flagged for a closer look

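For 9 of the 100 members, both IAA libraries lay below both controls in CGR8 cells, which have no degron, and above both controls in wtSRCAP cells, as for 3.69% of the 18262 genes tested in both. The log2 fold changes in CGR8 and wtSRCAP were −0.50 and 1.32 for Fosl2, the AP-1 subunit, −0.61 and 1.28 for Nkx6-2, a neural homeodomain factor, and −0.22 and 1.35 for Cilp2, a matrix protein. They were −0.21 and 0.80 for Pfkfb3, −0.34 and 0.55 for Plaur, the urokinase receptor, and −0.67 and 0.78 for Shf. They were −0.17 and 0.90 for Hs3st3b1, a heparan sulfate sulfotransferase, −0.37 and 0.51 for Parp8, and −0.13 and 1.10 for Slc35d3.

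For 7 of these the cdSRCAP libraries were also above both controls, as for 3.22% of the genes. The reverse order, above in CGR8 and below in wtSRCAP or cdSRCAP, held for 0 members in either line (3.78% and 2.97%). The log2 fold change in cdSRCAP cells was 1.29 for Fosl2, 1.35 for Nkx6-2, 0.76 for Cilp2, 0.85 for Pfkfb3, 0.49 for Plaur, 0.62 for Hs3st3b1 and 0.99 for Slc35d3. No member stood on opposite sides in wtSRCAP and cdSRCAP (1.09% and 0.696% of genes, by order), or in EG1 and LG1 (0.861% and 1.01%). CGR8 and the inducible lines were counted in separate tables, and the difference between them was not tested.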

How the results depend on the processing

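No member was called by the adjusted test in CGR8, wtSRCAP or cdSRCAP cells, and such counts changed with small changes of method. The columns sharing a replicate number deviated together, with correlations of 0.159 in CGR8, 0.482 to 0.677 in the sorted cells and 0.376 to 0.512 in the inducible lines, but with 2 pairs each and no label for a shared batch the numbers were not taken as pairs. With a replicate block, members called higher, each with the share of all genes called in the same fit, were 4 in CGR8 (1.58%, with 1 or 0.889% lower and 15 or 8.7% at p under 0.05), 11 in EG1 (1.5%, with 5 or 4.53% lower), 9 in LG1 (1.61%), 43 in wtSRCAP (1.74%), 17 in cdSRCAP (0.523%, with 57 or 7.16% at p under 0.05), 11 in cdSRCAP against wtSRCAP controls (0.612%) and 6 with IAA (0.591%, with 2 or 0.816% lower), and the EG1 minus LG1 difference was called lower for 4 (2.42%). With DESeq2 they were 1 in CGR8 (0.257%), 2 in wtSRCAP (0.0302%), 1 in cdSRCAP (0.00906%), 2 between controls (0.0543%) and 1 with IAA (0.0121%), with 1 lower for EG1 minus LG1 (0.147%) and 0 lower in EG1 (0.353%, median 0.119). With no filter they were 3 in CGR8 (0.898%), 1 in LG1 (0.364%), 5 in wtSRCAP (0.0392%), 1 in cdSRCAP (0.0151%), 5 between controls (0.0906%, with 1 or 0.0302% lower) and 1 with IAA (0.0513%, with 2 or 0.0815% lower), with 5 lower in EG1 (1.41%, median 0.123) and 5 for EG1 minus LG1 (0.932%). RLE scaling gave 0 lower in EG1 (0.885%, median 0.111) and 1 higher in LG1 (0.343%), and a fit of only the groups compared a median of 0.109 in EG1.

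Intron counts, with 63 to 84 members tested, gave 5 at p under 0.05 (2.57%) and a median of 0.029 in CGR8, 1 higher (0.39%), 0 lower (1.89%) and a median of 0.133 in EG1, 5 higher (1.24%) and 0.252 in LG1, 1 higher (0.969%) and −0.142 for EG1 minus LG1, 2 higher (0.063%) and 21 at p under 0.05 (5.76%) in wtSRCAP, 16 at p under 0.05 (3.78%) in cdSRCAP and 1 higher (0.0945%) between controls. The intron counts of EG1 and LG1 were not the same measure. They summed to 1.11 to 1.23 times the exonic total in EG1 and to 0.185 to 0.358 times in LG1. Irf2bpl, whose 1 exon spans the whole gene, had 93.9 to 120 CPM over introns in EG1 and 0 in LG1. The intron values for EG1 and for EG1 minus LG1 thus cannot be read as intronic responses. On introns Bmp4 and Hbegf turned to −0.759 and −0.336 in CGR8, and Ovol1 to −5.319 in cdSRCAP, and the cause was not tested. Column sum scaling and the counts at p under 0.05 were added after the data were seen. That scaling gave medians of 0.193 in CGR8, 0.027 in EG1 (0 lower), 0.065 in LG1, 0.509 in cdSRCAP, −0.069 for cdSRCAP minus wtSRCAP and 0.267 for the lines with IAA.

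With single libraries left out, a lone sample being assumed to vary like the others, CGR8 had 0 to 6 called higher, 0 to 2 lower, 5 to 18 at p under 0.05 and a median of 0.111 to 0.179, the highest counts without control replicate 2. EG1 had 0 to 1 higher, 0 to 3 lower and a median of 0.051 to 0.163. LG1 had 0 to 3 higher and a median of 0.035 to 0.193, and EG1 minus LG1 0 to 5 lower and −0.080 to 0.039. In wtSRCAP 29 to 56 members were at p under 0.05, and in cdSRCAP 10 to 23 with a median of 0.489 to 0.656. These counts are given without the share of all genes passing in the same fit, so they cannot be read alone. In CGR8 that share at p under 0.05 also rose without control replicate 2, so the higher counts there do not set the members apart. The medians were −0.428 to −0.023 for cdSRCAP minus wtSRCAP, 0.094 to 0.428 between controls and −0.138 to 0.243 with IAA. The list shared 30 genes with a mean CPM limit of 1, 64 with a limit of 10, 17 on introns and 55 to 79 with libraries left out. Of 576 alternatives for 54 named gene values, 90 lost p under 0.05 (59 of them with a library left out) and 3 reversed. Each group had 2 libraries, which limits the precision of every value.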
